A study of Mus musculus with 90 samples.

Results

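The 61 melanoma tumours compared here came from mice given an antibody to PD-L1, whatever the tumour did afterwards, and each was set against tumours of its own study from mice given a normal mouse IgG. Members were all samples whose label names the anti-mouse PD-L1 antibody, 61 of the 90 arrays of the series: 36 in study 2 and 25 in study 3. The comparison arm was the normal IgG at 10 mg/kg, with 14 tumours in study 2 and 8 in study 3. A second control, PBS at 10 ml/kg, gave 3 and 4 tumours. The PBS means entered a difference only where named. The PBS arrays were part of the fit to all 90 arrays, so they entered the estimate of spread behind its p-values.

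Every tumour was a subcutaneous melanoma allograft with the genotype label Hgftg;Cdk4R24C/R24C on strain B6.cBrd, so all groups carried the hepatocyte growth factor transgene and the R24C form of the cell cycle kinase Cdk4. Both antibodies were mouse IgG1 with the D265A change in the constant part. The treated labels give 10 mg/kg; the series text also gives 20 mg/kg for both antibodies. By outcome label the treated arm of study 2 held 17 responders, 14 non-responders, 3 relapses and 2 growth delays. That of study 3 held 10 responders, 9 non-responders, 3 stabilizations and 3 relapses.

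These proportions were set by which tumours were harvested. Per the series text, responders were taken on regression after 2 to 12 doses, and non-responders at matching times. The average over a treated arm is therefore an average over this mixture, and not over all mice that received the antibody. Mouse age and sex, and the promoter of the transgene, are not given in the sources used here.

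PD-L1, the product of Cd274, is a surface protein that binds the receptor PD-1, the product of Pdcd1, on activated T cells and lowers their signalling. An antibody to PD-L1 blocks that contact. T cells that recognise a tumour release interferon gamma, which induces antigen presentation genes, chemokines and Cd274 itself in the cells around them, so these gene groups are the usual readouts of checkpoint blockade in bulk tumour RNA.

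Each value is a log2 array signal of 1 probe set per gene for 18194 genes, and all 90 tumours have their own animal number in the labels. In both studies the treated and the IgG tumours carried separate ranges of animal numbers. The ranges followed each other directly in study 2, with a gap of 1, and lay 2907 numbers apart in study 3. Arm and any difference between these ranges cannot be told apart. The 4 PBS tumours of study 3 stood apart on sex-linked transcripts: Xist lay between 6.41 and 6.87 in them and at 7.42 or above in the other 86 arrays, while Y-linked Eif2s3y lay between 4.78 and 5.92 against at most 4.66. The difference between 3 prime and 5 prime control probes, a sign of RNA breakdown, ranged from -0.05 to 0.93 in treated and from -0.07 to 0.41 in IgG tumours of study 3, and reached 5.20 in 1 PBS tumour. IgG and PBS tumours differed in 1 gene by limma's moderated test with Benjamini-Hochberg adjustment, Eif2s3y, which was lower in IgG by 1.03 with an adjusted p of 3.86e-08.

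Averaged over the 2 studies, tumours of the anti-PD-L1 arm had higher mean levels of T cell, cytotoxic, inhibitory receptor, interferon gamma and antigen presentation transcripts than IgG tumours, but no gene passed the adjusted threshold of 0.05. The largest difference was Cd3g, a subunit of the T cell receptor complex, at 1.41 ± 0.37 (SE) on the log2 scale, 2.66-fold. limma called 0 of 18194 genes, 0% of those tested, and the smallest adjusted p was 0.0883. At an unadjusted p under 0.05 there were 4637 genes, 2155 higher (11.8%) and 2482 lower (13.6%), and 377 genes had an adjusted p under 0.10. The median difference over all genes was -0.01, with 23 genes above 1 and 1 below -1.

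The count of 0 depended on single tumours and on how the residual was formed. Leaving out IgG replicate 7 of study 2 gave 65 higher and 31 lower genes, leaving out non-responder 10 of study 2 gave 1 and 3, and leaving out non-responder 2 of study 3 gave 2 and 2; the other 87 refits gave 0. With 1 mean per outcome label and the same weights per tumour, the estimates stayed as they were and the residual shrank, and limma called 500 genes higher (2.75%) and 239 lower (1.31%). This second model is named below as the fit with outcome labels. Its p-values take the harvested mixture of labels as fixed and leave out the variation between labels. The labels themselves describe what each tumour did under treatment. Passing in this fit is therefore not passing in the comparison of the arms.

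The transcripts that mark T cells included the largest single difference. The list of the T cell receptor and its co-receptors also held other T cell genes: Cd2, Cd5, Cd6, Zap70, Lat, Trat1 and Thy1. All its members are named T cell receptor genes below. Of 14 measured, 11 were higher at unadjusted p (11.8% of all genes) and 0 lower. Their median difference was 0.71 against -0.01 over all genes. In the fit with outcome labels 9 passed, where all genes gave 2.75%. In study 2, Cd3g ran from 4.25 over a median of 6.85 to 10.95 in treated tumours and from 4.83 over 5.97 to 7.57 in IgG tumours. The arms overlapped, with 12 of 36 treated tumours above the highest IgG tumour and 3 below the lowest. In study 3, Cd3g ran from 5.07 over 8.37 to 10.94 in treated tumours and from 4.95 over 6.02 to 7.44 in IgG tumours. Here 14 of 25 treated tumours lay above every IgG tumour, among them 9 of 10 responders and 3 of 3 relapses but 0 of 9 non-responders. The difference of Cd3g was 1.06 in study 2 and 1.76 in study 3, with an adjusted p of 0.0903 in the average and 0.0139 in the fit with outcome labels.

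Cd8a, the alpha chain of the CD8 co-receptor of cytotoxic T cells, followed the same order. Its values in study 2 were 5.27, 6.36 and 9.49 (lowest, median, highest) in treated tumours and 5.38, 5.99 and 6.61 in IgG tumours. In study 3 they were 5.49, 6.98 and 9.49 against 4.89, 5.99 and 6.46. In study 2, 14 of 36, and in study 3, 13 of 25 treated tumours exceeded every IgG tumour. In study 2, 1 treated tumour lay below every IgG tumour, and the others overlapped with the IgG arm. The difference was 0.93 ± 0.23 (SE), adjusted p 0.0903, and 0.0139 in the fit with outcome labels. Its partner Cd8b1 was higher by 1.09 ± 0.30, the adhesion receptor Cd2 by 0.93 ± 0.25, and the chain Cd3e by 0.62 ± 0.17, each with an adjusted p of 0.0903.

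Bulk RNA cannot tell more T cells from more RNA per T cell. The highest mean of the T cell list belonged in both studies to a tumour whose melanocyte list was low. Non-responder 14 of study 2 had a T cell mean of 9.35 and a B cell mean of 10.20 with a melanocyte mean of 8.13. Responder 3 of study 3 had 9.44, 10.42 and 6.84. With the 6 tumours whose melanocyte mean was below 9 left out, Cd3g was higher by 1.11 and Cd8a by 0.70, with an adjusted p of 0.208 for both. PBS tumours had T cell list means of 6.01 to 6.44 in study 2 and 5.73 to 6.04 in study 3, beside 5.89 to 6.90 and 5.78 to 6.74 in IgG tumours.

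**Figure D1:**
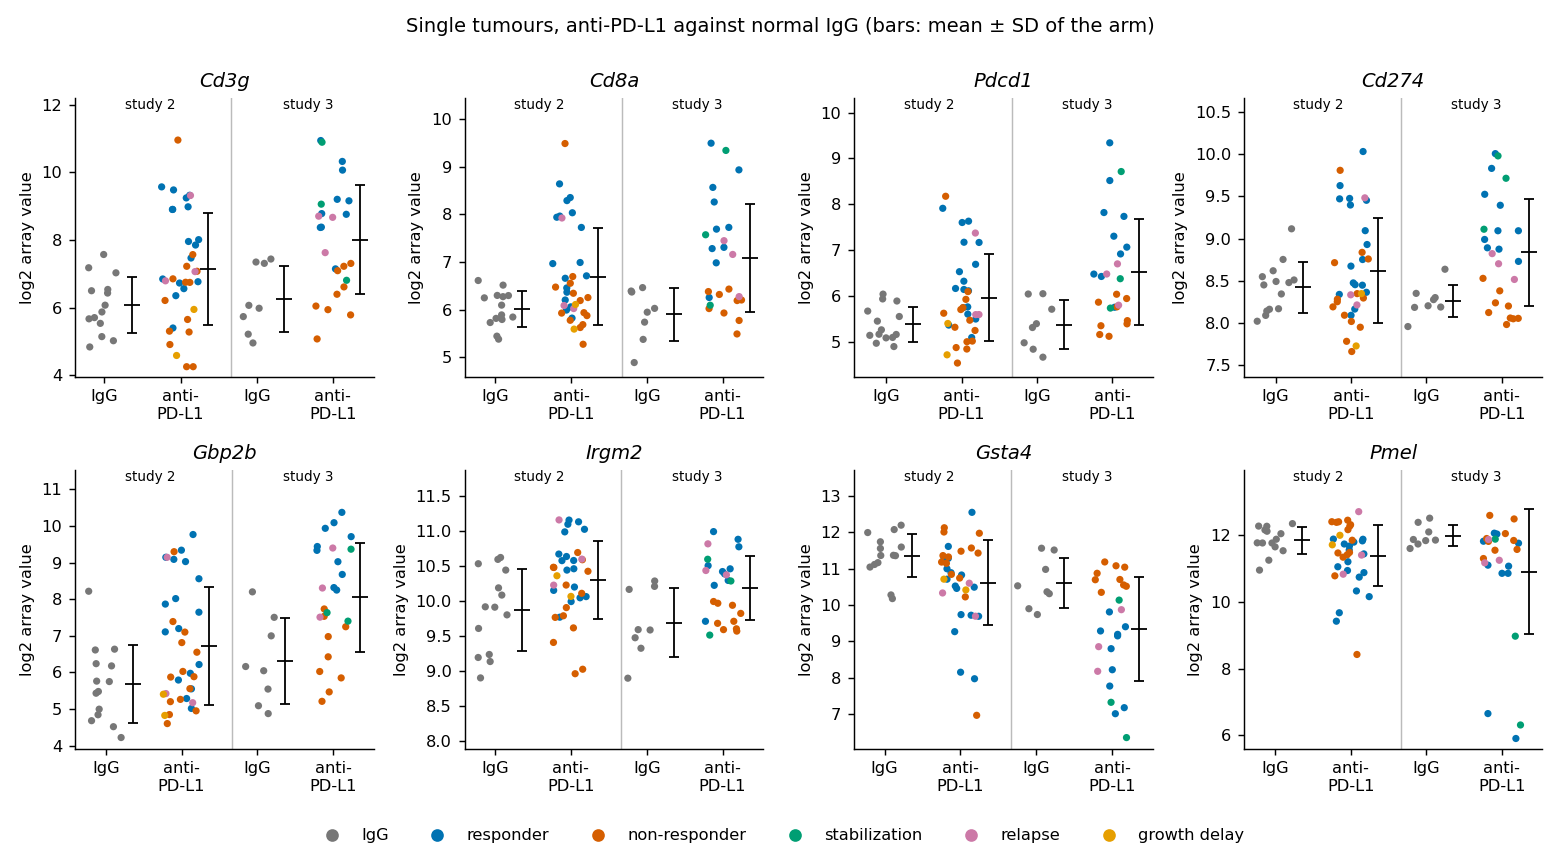
Log2 array value of 8 genes in every anti-PD-L1 and IgG tumour of study 2 (left) and study 3 (right of each panel). A point is 1 tumour, coloured by outcome label, and the bar is the mean ± SD of the arm. Treated arms of Cd3g, Cd8a and Pdcd1 reach far above the IgG arm but also fill its range, while the 2 arms of Irgm2 have a similar width.

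Cytotoxic effector genes moved with the receptor genes. Of 16 measured members, 12 were higher at unadjusted p, beside 11.8% of all genes, and 0 lower. The median difference was 0.73, and 10 passed in the fit with outcome labels, beside 2.75% of all genes called higher. Ccl5, a chemokine made by activated T and NK cells, ran from 7.65 over 9.36 to 12.26 in treated and from 7.71 over 8.63 to 9.89 in IgG tumours of study 2. In study 3 the values were 8.40, 10.47 and 12.60 against 7.85, 8.64 and 9.79. In each study 13 treated tumours were above all IgG tumours, of 36 and of 25. Ccl5 was higher by 1.19 ± 0.29 (SE), or 2.28-fold, with an adjusted p of 0.0903 and, in the fit with outcome labels, 0.0135.

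Gzmk, a granule protease of memory CD8 T cells, was higher by 1.15 ± 0.27, and 16 tumours exceeded the IgG range in each study. Nkg7, a granule membrane protein, was higher by 1.12 ± 0.30, and Gzmb, the main killing protease, by 1.01 ± 0.32. The adjusted p was 0.0903 for Gzmk and Nkg7 and 0.0990 for Gzmb. Ifng, the gene of interferon gamma, ran from 3.96 over 5.24 to 7.76 in treated and from 3.82 over 4.69 to 6.35 in IgG tumours of study 2, and in study 3 from 4.03 over 6.17 to 8.43 against 3.91 over 5.20 to 6.28. Most treated tumours lay within the IgG range: 9 of 36 and 10 of 25 exceeded it. Ifng was higher by 1.005 ± 0.27, adjusted p 0.0903. Cxcr6, a chemokine receptor of tissue T cells, was higher by 1.19 ± 0.33, and Tbx21, the transcription factor that drives interferon gamma production, by 1.05 ± 0.28.

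The list of receptors and ligands that restrain T cells also held Tox, a transcription factor, and Entpd1, a surface enzyme. Of its 12 measured members 11 were higher at unadjusted p, beside 11.8% of all genes, and 0 lower. Their median difference was 0.54, and 9 passed in the fit with outcome labels, beside 2.75% of all genes called higher. Pdcd1, the receptor whose ligand was blocked, ran from 4.55 over 5.73 to 8.18 in treated and from 4.91 over 5.22 to 6.05 in IgG tumours of study 2. In study 3 it ran from 5.13 over 6.38 to 9.34 against 4.68 over 5.36 to 6.06. The IgG arm was narrow and low, and 14 of 36 and 13 of 25 treated tumours stood above it. Pdcd1 was higher by 0.87 ± 0.23, adjusted p 0.0903. Havcr2, the TIM-3 receptor, was higher by 0.89 ± 0.22, Lag3, a receptor for MHC class II, by 0.63 ± 0.17, and Ctla4, a competitor of the co-stimulator CD28, by 0.55 ± 0.14, each with an adjusted p of 0.0903.

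Cd274, the target of the antibody, differed less. In study 2 its treated values of 7.66, 8.41 and 10.03 surrounded the IgG values of 8.02, 8.47 and 9.12, with 8 of 36 above and 5 of 36 below that range. In study 3 the treated values were 7.98, 8.82 and 10.01 against 7.96, 8.24 and 8.64, with 15 of 25 above: 10 of 10 responders, 3 of 3 stabilizations and 2 of 3 relapses. None of the 9 non-responders of study 3 exceeded the highest IgG tumour. Cd274 was higher by 0.39 ± 0.14, adjusted p 0.113, and 0.0363 in the fit with outcome labels.

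Regulatory T cells suppress other T cells and are marked by the transcription factor Foxp3. Foxp3 differed by 0.01 ± 0.05 (SE), with ranges of 5.11 to 5.82 in treated and 5.26 to 5.74 in IgG tumours of study 2, and 5.69 to 6.55 against 5.74 to 6.19 in study 3. Of 8 measured members of the regulatory list 3 were higher at unadjusted p, beside 11.8% of all genes, and the median difference was 0.07. Tnfrsf18 was higher by 0.57 and Tnfrsf4 by 0.31, and 7 of the 8 differences were above 0. In study 3 the mean of this list exceeded every IgG tumour in 19 of 25 treated tumours. In study 2 it did so in 11 of 36, while 10 lay below every IgG tumour. With each array centred on its median the estimate for Foxp3 turned to -0.03.

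Genes that interferon gamma induces were higher in the treated arm almost throughout: 16 of 17 at unadjusted p (11.8% of all genes), 1 lower. The median difference was 0.45, and 7 passed in the fit with outcome labels, beside 2.75% of all genes called higher. Promoters of this group, and of Slamf8, which is among the 10 highest genes, are shown because they carry the elements through which interferons act. The core of the interferon-stimulated response element was searched as GAAA, any 2 bases and GAAA again. The core of the gamma-activated site was searched as TTCNNNGAA. Both were searched on both strands in RefSeq promoters of build GRCm38.p6, from 250 bases before to 50 after the start of each gene; in the sequences below they are in capitals and may lie next to each other.
Gbp2b: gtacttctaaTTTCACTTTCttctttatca
Gbp2: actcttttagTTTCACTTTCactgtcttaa
Irgm2: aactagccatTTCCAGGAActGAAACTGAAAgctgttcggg
Igtp: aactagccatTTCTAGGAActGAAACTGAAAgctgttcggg
Irf1: acagcctgatTTCCCCGAAatgatgaggcc
Slamf8: cccgggatgcTTTCGCTTTCaagacatctt
The windows lie at chr3:142594700-142594729 (Gbp2b), chr3:142620594-142620623 (Gbp2), chr11:58214892-58214932 (Irgm2), chr11:58199501-58199541 (Igtp) and chr11:53769914-53769943 (Irf1) on the plus strand, and at chr1:172590564-172590593 (Slamf8) on the minus strand. They are printed 5′ to 3′ along the gene. The response element core began at position -137 from the start in Gbp2b, -59 in Gbp2, -64 in Irgm2, -34 in Igtp and -15 in Slamf8. The gamma-activated core began at -75 in Irgm2, -45 in Igtp and -90 from the upstream start of Irf1, which has 2 in the table.

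Of the 12 interferon gamma genes with a promoter in the table, 9 (75%) held the response element core and 4 (33.3%) the gamma-activated core, beside 3.63% and 8.57% of all 14453 genes with a promoter. Among T cell receptor genes 0 and 1 of 9 held them, and among melanocyte genes 0 and 0 of 10. These are letters in a window and not measured binding.

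Gbp2b, a guanylate-binding GTPase that acts against intracellular microbes and is the first sequence above, was the second largest difference of all genes. In study 2 it ran from 4.60 over 6.12 to 9.77 in treated and from 4.22 over 5.61 to 8.22 in IgG tumours, with 8 of 36 treated tumours above that range. In study 3 it ran from 5.21 over 8.25 to 10.37 against 4.88 over 6.10 to 8.20, with 13 of 25 above, including 10 of 10 responders. IgG tumours themselves spanned several log2 units, so the arms overlapped widely. Gbp2b was higher by 1.39 ± 0.36 (SE), adjusted p 0.0903, and 0.0139 in the fit with outcome labels. Gbp8 was higher by 1.20 ± 0.35, Gbp2 by 0.58 ± 0.20 and Slamf8, a receptor of activated macrophages, by 1.10 ± 0.34. Near-identical members of the Gbp family can share probe sequence, so values of single members are uncertain.

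Irgm2 and Igtp, immunity-related GTPases whose windows above are nearly the same, had smaller and more even differences. Irgm2 ran from 8.96 over 10.40 to 11.16 in treated and from 8.90 over 9.92 to 10.63 in IgG tumours of study 2, and from 9.52 over 10.29 to 10.995 against 8.90 over 9.59 to 10.29 in study 3. No treated tumour fell below the IgG range in either study, and 9 of 36 and 12 of 25 exceeded it. Irgm2 was higher by 0.46 ± 0.13 and Igtp by 0.54 ± 0.16, with adjusted p of 0.0944 and 0.0968. Irf1, the transcription factor that relays the interferon signal, was higher by 0.44 ± 0.14, and Cxcl9, a chemokine for T cells, by 0.59 ± 0.28. The single member in the other direction was Cxcl11, a related chemokine, lower by 0.44 on the log2 scale (-0.44 ± 0.21), and its SD in treated tumours was 1.62 times that of IgG in study 2 and 5.72 times in study 3. Of 15 genes induced mainly by type I interferon, 4 were higher at unadjusted p, beside 11.8% of all genes. In the fit with outcome labels 0 passed, beside 2.75% of all genes called higher, and the median difference was 0.18. Mx1, an antiviral GTPase, was higher by 0.44 ± 0.15.

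Antigen presentation genes lay higher in both classes. Of 11 genes of MHC class I presentation, 10 were higher at unadjusted p, beside 11.8% of all genes, with a median difference of 0.25. Tap1, which pumps peptides into the endoplasmic reticulum, ran from 9.13 over 10.42 to 11.46 against 9.35 over 10.19 to 11.17 in IgG in study 2, and from 9.34 over 10.35 to 11.21 against 8.82 over 9.72 to 10.28 in study 3. In study 3, 14 of 25 treated tumours exceeded the range of 8 IgG tumours, and in study 2, 7 of 36 exceeded that of 14 IgG tumours. A range of fewer tumours is exceeded more easily, so such counts are not directly comparable between the studies. Tap1 was higher by 0.47 ± 0.14, its partner Tap2 by 0.57 ± 0.17 and the loading factor Tapbp by 0.51 ± 0.15, while the light chain B2m differed by 0.07 ± 0.03.

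Of 9 genes of MHC class II presentation, 8 were higher at unadjusted p, beside 11.8% of all genes, with a median difference of 0.85. Cd74, the invariant chain that guides class II molecules, ran from 7.65 over 11.77 to 13.88 against 8.93 over 10.71 to 12.73 in IgG in study 2, and from 9.59 over 12.24 to 13.72 against 9.11 over 10.68 to 12.23 in study 3. The treated arm of study 2 also held the lowest values of Cd74, 2 tumours below every IgG tumour, beside 10 above. Cd74 was higher by 1.002 ± 0.31, H2-Eb1, a class II beta chain, by 0.96 ± 0.29 and H2-DMa, which helps load peptides, by 0.85 ± 0.26, each with an adjusted p of 0.0968. In the fit with outcome labels 4 of 11 class I and 6 of 9 class II genes passed, beside 2.75% of all genes called higher.

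Macrophage genes were higher at unadjusted p in 10 of 16 members, with a median difference of 0.50. In the fit with outcome labels 3 passed, beside 2.75% of all genes called higher. Mertk, a receptor for dying cells, was higher by 0.55 ± 0.16, with 4 of 36 treated tumours above the IgG range in study 2 and 18 of 25 in study 3. Mpeg1, a pore-forming protein of macrophages, was higher by 0.67 ± 0.22. Irf8, a transcription factor counted here in the dendritic cell list, was higher by 0.81 ± 0.25. This was the largest difference of that list, whose median was 0.03. Over all genes 11.8% were higher and 13.6% lower, and several of the following lists were near these shares. Of 12 genes of alternatively activated macrophages 2 were higher and 1 lower, of 10 neutrophil genes 1 was higher, of 11 dendritic cell genes 4 and of 6 NK cell genes 2. Of 14 chemokines and receptors 5 were higher. Ccl3 and Ccl4, chemokines of activated macrophages and T cells, were higher by 0.92 ± 0.25 and 0.63 ± 0.17. B cell genes had a median difference of 0.48 with 2 of 11 higher, and plasma cell genes 0.22 with 1 of 9.

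**Figure D2:**
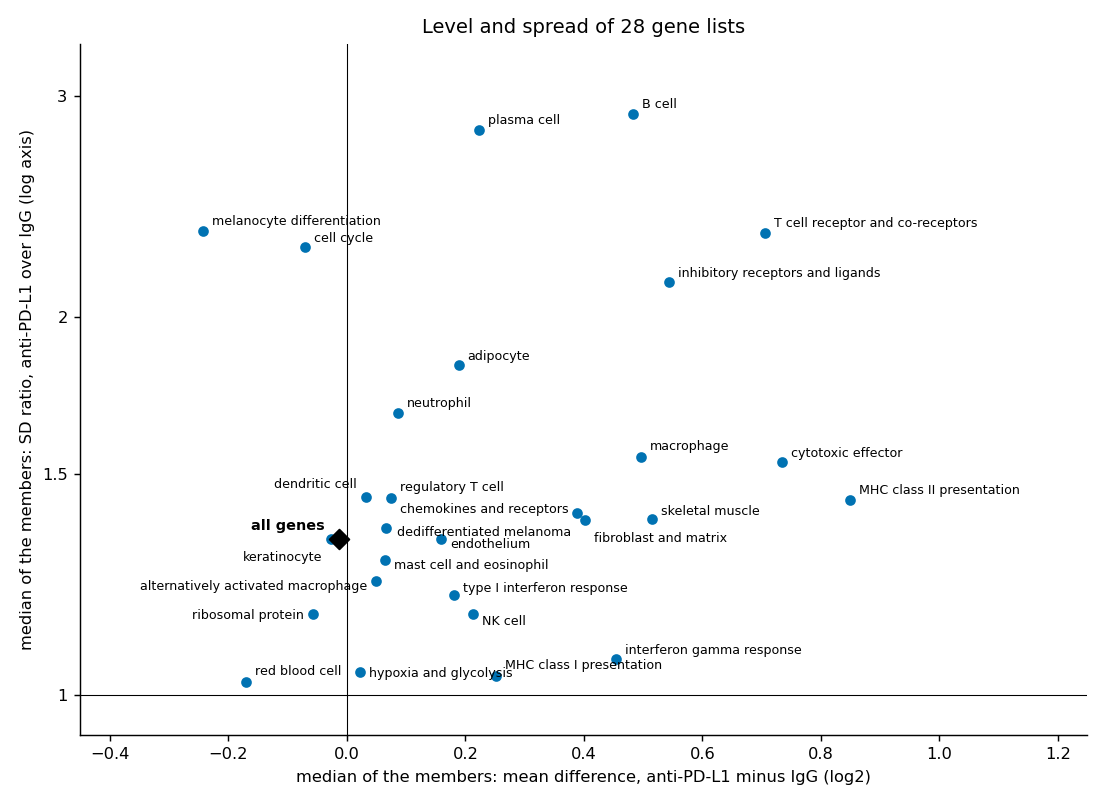
For each of 28 gene lists, the median over its measured members of the mean difference (x axis, log2, average of both studies) against the median ratio of the SD between treated tumours to that between IgG tumours (y axis, log scale); the diamond is all 18194 genes. T cell receptor genes have both a higher level, 0.71, and a wider spread, 2.34, whereas interferon gamma genes have a higher level, 0.45, with a ratio of 1.07.

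The lowest differences are given by gene. Gsta4, a glutathione transferase that clears lipid peroxidation products, had the lowest difference of all genes, -1.003 ± 0.29 (SE), with an adjusted p of 0.0918 and 0.0204 in the fit with outcome labels. It ran from 6.97 over 10.78 to 12.54 against 10.18 over 11.36 to 12.19 in IgG in study 2, and from 6.36 over 9.40 to 11.18 against 9.74 over 10.45 to 11.56 in study 3. In study 3, 13 of 25 treated tumours lay below every IgG tumour, 9 of them responders and 0 non-responders, and in study 2, 8 of 36. Slc26a7, an anion transporter, differed by -0.86 ± 0.28, Fabp3, a fatty acid binding protein, by -0.74 ± 0.26, and Ptgds, a prostaglandin D synthase, by -0.69 ± 0.24.

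Pmel, the structural protein of melanosomes, ran from 8.42 over 11.51 to 12.69 against 10.95 over 11.82 to 12.34 in IgG in study 2. In study 3 it ran from 5.91 over 11.56 to 12.58 against 11.59 over 11.85 to 12.50. In study 2, 10 of 36 treated tumours lay below every IgG tumour; in study 3, 13 of 25 did, so that the treated median was below the lowest IgG value. Pmel differed by -0.76 ± 0.30, adjusted p 0.126.

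Over the 15 measured melanocyte genes 3 were lower at unadjusted p, where 13.6% of all genes were, and 0 higher, with a median of -0.24 and 0 of 15 differences above 0. Mlana, a melanosomal antigen, differed by -0.55 ± 0.28. The melanocyte list mean ran from 6.76 to 9.71 in treated tumours of study 3 and from 9.32 to 9.64 in IgG tumours. The 6 tumours with a melanocyte mean below 9 were high in transcripts of other tissues: in study 3, responder 4 had a skeletal muscle mean of 13.02, stabilization 1 a fibroblast mean of 12.76, and responder 3 an adipocyte mean of 11.13. IgG tumours of study 3 reached 8.69 for skeletal muscle and 10.27 for fibroblast genes. The 6 tumours were chosen on the melanocyte list, so its genes are not given without them, and the part of other tissues in their differences was not tested.

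Of 21 cell cycle genes 3 were lower at unadjusted p and 0 higher, with a median of -0.07; 13.6% of all genes were lower, so this share is near that of all genes. Ccnb2, a mitotic cyclin, differed by -0.27 ± 0.12, Bub1, a spindle checkpoint kinase, by -0.29 ± 0.13 and Cdk1, the mitotic kinase, by -0.25 ± 0.12; Mki67, the usual proliferation marker, differed by 0.14 ± 0.12. Cdk4 itself differed by -0.23 ± 0.09 and Hgf by -0.38 ± 0.24, with adjusted p of 0.126 and 0.303. The 3 probe sets of Hgf ran from -0.422 to 0.055. Of 10 ribosomal protein genes 4 were lower at unadjusted p and 0 higher, with a median of -0.06. Fibroblast and matrix genes had a median of 0.40 with 1 of 16 higher, skeletal muscle genes 0.52 with 0 of 14, hypoxia genes 0.02 with 0 of 14, keratinocyte genes -0.03 with 1 of 12 lower, and endothelial genes 0.16 with 1 of 12 higher. Adipocyte genes had a median of 0.19 with 2 of 8 higher, mast cell and eosinophil genes 0.06 with 1 of 10, and dedifferentiated melanoma genes 0.07 with 4 of 11. At unadjusted p 11.8% of all genes were higher. The 3 red blood cell genes had a median of -0.17, and 0 of 3 differed at unadjusted p.

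The smallest p-values belonged to small differences with little spread. Hoxa10, a homeobox transcription factor, ran from 3.18 over 3.82 to 5.02 against 3.53 over 4.09 to 5.17 in IgG in study 2, and from 3.02 over 3.71 to 4.89 against 3.96 over 4.49 to 5.37 in study 3, near the low end of the array's scale. In study 3, 20 of 25 treated tumours lay below every IgG tumour, and in study 2, 7 of 36. Hoxa10 differed by -0.53 ± 0.11, adjusted p 0.0883. Aftph, a trafficking adaptor, differed by 0.24 ± 0.05 with the same adjusted p. Its treated values were 8.71, 9.06 and 9.48 against 8.60, 8.86 and 8.89 in IgG in study 3, where 20 of 25 tumours and 10 of 10 responders exceeded the IgG range; in study 2, 4 of 36 did. The probe sets of Cd8a and Aftph, 5 for each gene, were represented by the brightest alone. Over all 5, the difference ran from 0.132 to 1.206 for Cd8a, with 5 higher at unadjusted p. For Aftph it ran from 0.055 to 0.239, with 2 higher. The 2 probe sets of Hoxa10 differed by -0.533 and -0.052, with 1 lower at unadjusted p. Over the 4 probe sets of Tap1 the difference ran from -0.039 to 0.473, with 1 higher.

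Within single studies the picture differed. In study 2, limma called 364 genes, 64 higher (0.352%) and 300 lower (1.65%). In study 3 it called 0, with 1867 higher and 1683 lower at unadjusted p under 0.05 and a smallest adjusted p of 0.112, although more genes were far higher there: 196 exceeded 1 on the log2 scale in study 3 and 3 in study 2, while 7 and 6 were below -1. No gene passed the test of the difference between the studies; 3414 genes had an unadjusted p under 0.05, and the smallest adjusted p was 0.0572. The refits gave up to 43 and 33 genes there, most without IgG replicate 8 of study 3 (43 and 32) and without relapse 2 of study 3 (37 and 33).

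**Figure D3:**
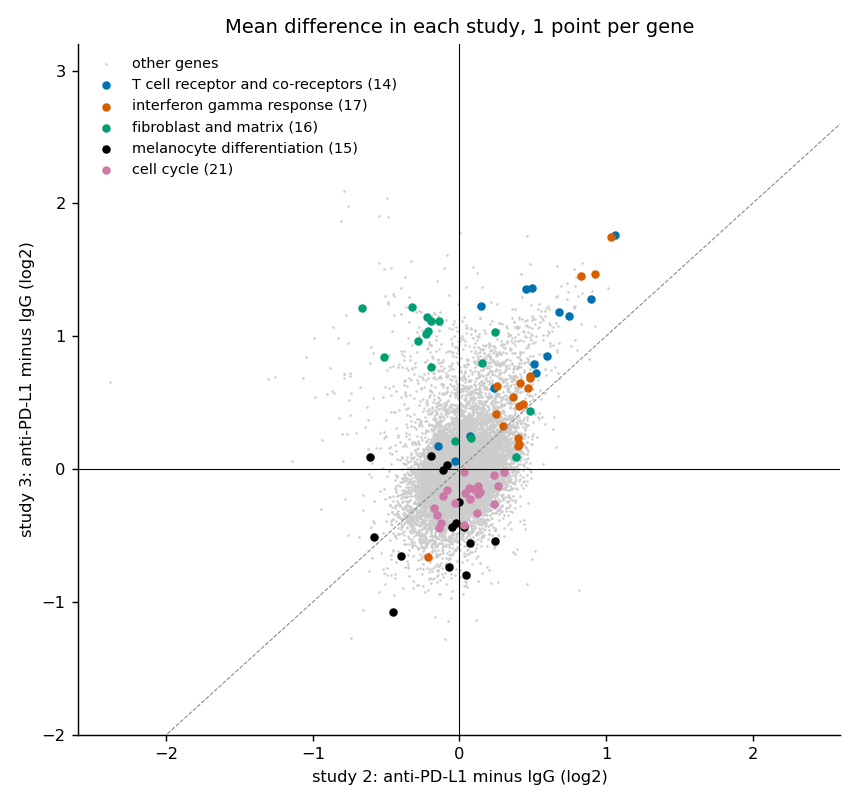
Mean difference between anti-PD-L1 and IgG tumours of study 2 (x axis, log2) against that of study 3 (y axis, log2), 1 point per gene, with the members of 5 gene lists in colour and the line of equal differences dashed. T cell receptor genes lie above 0 with medians of 0.50 and 1.0, while fibroblast genes have medians of -0.20 in study 2 and 0.99 in study 3.

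Gene groups differed in how far the studies matched. The median differences in study 2 and study 3 were 0.50 and 1.0 for T cell receptor genes, 0.41 and 0.55 for interferon gamma genes, 0.21 and 0.30 for MHC class I, 0.61 and 0.89 for MHC class II, and -0.07 and -0.44 for melanocyte genes. In 12 of the 28 lists the medians had opposite signs. Skeletal muscle genes had -0.44 and 1.46, fibroblast genes -0.20 and 0.99, chemokines and receptors -0.16 and 0.74, genes of alternatively activated macrophages -0.33 and 0.54, and neutrophil genes -0.17 and 0.41. Regulatory T cell genes had -0.03 and 0.24, cell cycle genes 0.07 and -0.19 and hypoxia genes -0.08 and 0.10, and the dendritic cell, endothelium, keratinocyte and mast cell lists differed in sign too. The averages given above for these lists join medians of opposite sign. The difference of each group between the studies was not tested.

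Among the 337 measured entries of the gene lists, the genes called in study 2 were Cd160 and Cxcl1. Over all genes 0.352% were called higher and 1.65% lower. Cd160, an inhibitory receptor, fell by 0.20 on the log2 scale (-0.20, adjusted p 0.0465), and Cxcl1, a neutrophil chemokine, fell by 0.33 (-0.33, adjusted p 0.0341). The largest fall was Serpinb2, an inhibitor of urokinase. It ran from 3.40 over 4.38 to 9.26 in treated and from 4.35 over 6.65 to 11.02 in IgG tumours, with 18 of 36 treated tumours below every IgG tumour. Serpinb2 fell by 2.39 in study 2 (-2.39, adjusted p 0.0187) and differed by 0.66 in study 3, where the treated median of 6.50 was above the IgG median of 5.57.

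Cux2, a homeobox transcription factor, had the smallest adjusted p of study 2. Its treated values were 7.24, 7.70 and 8.32 against 7.91, 8.17 and 8.61 in IgG, and 24 of 36 treated tumours lay below every IgG tumour: 16 of 17 responders, 3 of 14 non-responders, 3 of 3 relapses and 2 of 2 growth delays. Cux2 fell by 0.40 in study 2 (-0.40, adjusted p 0.00069). In study 3 it differed by -0.09, and 8 of 25 tumours lay below the IgG range.

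Pde6h, an inhibitory subunit of a photoreceptor phosphodiesterase, separated the arms of study 2 in 30 of 36 tumours, 16 of 17 responders and 10 of 14 non-responders among them. Its range was 4.81 to 5.68 against 5.43 to 5.78, and it fell by 0.28 in study 2 (-0.28, adjusted p 0.00236). Scrn2, a secernin, fell by 0.48 (-0.48, adjusted p 0.00123), with 25 of 36 tumours below the IgG range and a difference of -0.01 in study 3. The differences of Cux2, Pde6h and Scrn2 between the studies did not pass the test over all genes. Averaged over both studies, the 2 probe sets of Scrn2 differed by -0.246 and -0.048, with 1 lower at unadjusted p. The 3 of Cux2 ran from -0.249 to -0.024, with 2 lower, and the 2 of Pde6h differed by -0.191 and -0.146, with 2 lower. Single probe sets were not compared within study 2.

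Among the 64 genes that rose in study 2 was Itga4, the integrin alpha 4 chain of leukocytes, by 0.64 (adjusted p 0.0454), with 15 of 36 treated tumours above the IgG range of 7.51 to 9.15. L1cam, an adhesion molecule, rose by 0.66 (adjusted p 0.0499), and Rabggta, a subunit of the enzyme that attaches lipid to Rab proteins, rose by 0.46 (adjusted p 0.0101), with 19 of 36 above. Tex13b, a testis-expressed gene, rose by 0.82 in study 2 (adjusted p 0.0462) and differed by -0.91 in study 3. In the average of both studies, the probe sets of Itga4 ran from -0.040 to 0.471 and those of L1cam from 0.152 to 0.414. Those of Tex13b ran from -0.046 to 0.180. The numbers of calls in study 2 turned on single tumours: they lay between 3 and 355 higher genes and between 32 and 872 lower genes over 90 refits, at the low end without IgG replicate 10 (3 and 36) or 11 (4 and 32), and at the high end without IgG replicate 7 (355 and 872). They came to 10 and 75 with only responders and non-responders as the treated arm.

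The spread between tumours was larger in the treated arm for most genes. The SD exceeded that of IgG tumours in 68.0% of genes in study 2 and 85.5% in study 3. The median SD was 0.227 against 0.196 in study 2 and 0.281 against 0.184 in study 3, and the median ratio was 1.15 and 1.54. Tested gene by gene, as absolute deviations from the arm median in limma, 1913 genes had a larger spread in the treated arm at unadjusted p under 0.05 (10.5%) and 49 a smaller one. No gene passed after adjustment; the smallest adjusted p was 0.447, and leaving out any of the 90 tumours called 0 as well. Deviations from the arm mean instead called 2 genes, Lag3 and Pgap1 (adjusted p 0.0474 for both), and the log2 of the squared deviation called Pgap1 (adjusted p 0.0147).

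**Figure D4:**
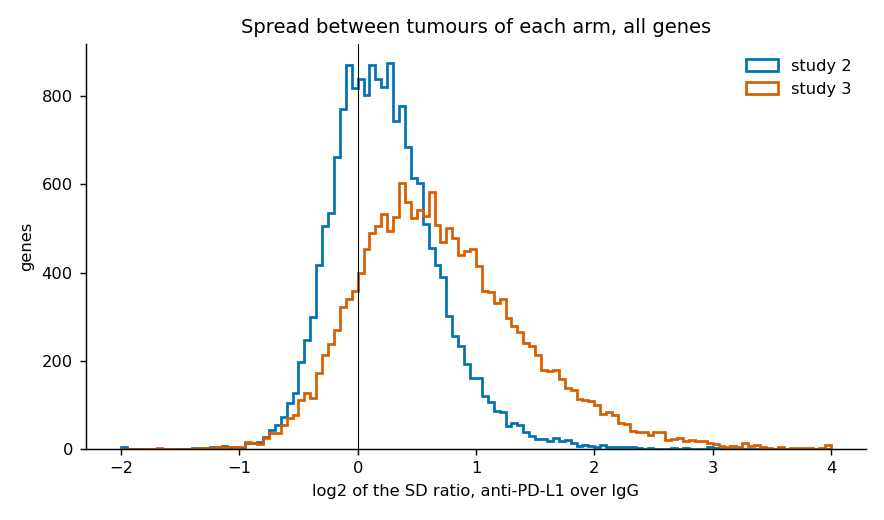
Number of genes (y axis) by the log2 of the ratio of the SD between anti-PD-L1 tumours to the SD between IgG tumours (x axis), for study 2 and study 3; ratios past the ends of the axis are counted in the end bins. The peak of study 2 lies just above 0, with a median ratio of 1.15, and that of study 3 lies further right, with a median ratio of 1.54.

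T cell genes were among the widest. B cell genes had higher median SD ratios, 3.12 in study 2 and 3.25 in study 3, with 1 of 11 members wider at unadjusted p. Those of plasma cell genes were 1.69 and 2.55. SD ratios of these lists are not given without the 2 tumours highest in the T cell list, which were also high in B cell genes. Of the 14 genes of the T cell list 10 had a larger spread at unadjusted p, against the 10.5% of all genes, and their median SD ratio was 2.38 in study 2 and 2.28 in study 3. The SD of Cd274 was 0.621 in treated and 0.297 in IgG tumours of study 2, and 0.637 against 0.192 in study 3. For Cd5, a scavenger receptor family protein of T cells, the ratios were 2.34 and 3.71, for Il7r, the interleukin 7 receptor, 2.67 and 4.11, and for Lag3, 3.29 and 3.89. Of 12 inhibitory receptors and ligands 9 had a larger spread at unadjusted p.

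Pgap1, an enzyme that remodels lipid anchors, had the smallest p of the spread test (unadjusted p 0.0003). Its SD in study 3 was 1.40 in treated and 0.178 in IgG tumours, a ratio of 7.83, and in study 2 the ratio was 1.76. Treated values of Pgap1 in study 3 ran from 3.31 to 7.93 and IgG values from 3.57 to 4.05, with 14 of 25 tumours above and 4 below. Its 2 probe sets differed by 0.042 and 0.769 in the mean comparison, and only the brightest entered the spread test.

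Interferon gamma and class I genes did not share this width. Of 17 interferon gamma genes 1 had a larger spread at unadjusted p, with median SD ratios of 1.15 and 0.942, and of 11 class I genes 0 did, with ratios of 1.14 and 0.935. Over all genes 10.5% had a larger spread, with median ratios of 1.145 and 1.545. Both counts, and the ratios of study 2, were therefore near those of all genes. IgG tumours already varied as much: the interferon gamma list mean ran from 8.36 to 10.30 in IgG tumours of study 2 and from 8.60 to 10.26 in study 3, against 8.23 to 11.02 and 9.05 to 11.09 in treated tumours. The SD of Irgm2 was 0.552 against 0.583 in study 2 and 0.454 against 0.490 in study 3. Thus the interferon gamma list differed from IgG in its mean with a similar SD, and the T cell list in both. The difference in SD ratio between these lists was not tested.

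Melanocyte genes had median SD ratios of 1.44 and 3.26 and cell cycle genes 1.39 and 3.11. Their median differences in level were -0.24 and -0.07. For Bub1 the SD in study 3 was 0.868 in treated and 0.108 in IgG tumours, and 13 of 25 treated tumours lay below the lowest IgG tumour. For Gzmk the spread difference was 0.61 with all tumours and 0.45 without the 6 tumours low in melanocyte transcripts. Hypoxia genes had a median ratio of 1.04 over both studies.

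No gene separated the arms completely in either study. The most treated tumours above every IgG tumour were 26 of 36, for Cln8, in study 2, and 23 of 25, for Rasgrp4 and Tspan11, in study 3; these 3 genes were named after their values were seen. For the median gene 16.7% of treated tumours lay outside the IgG range in study 2 and 32% in study 3, where the range is that of fewer IgG tumours.

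Over all genes at once, the distance of a tumour from the mean of its arm (root mean square over 18194 genes, log2, scaled for arm size) was 0.339 ± 0.132 (SD, n = 36) in treated and 0.296 ± 0.097 (SD, n = 14) in IgG tumours of study 2. The difference of 0.044 had a two-sided permutation p of 0.279 over 100000 resamples. In study 3 the distance was 0.412 ± 0.204 (SD, n = 25) against 0.257 ± 0.056 (SD, n = 8), a difference of 0.155 with a two-sided exact permutation p of 0.0336. In study 3, 14 of 25 treated tumours were further from their arm's mean than any of 8 IgG tumours, and in study 2, 2 of 36 were further than any of 14. With the melanocyte-low tumours left out the differences were 0.022 (permutation p 0.497) and 0.053 (exact permutation p 0.0472), the latter with 9 of 21 tumours above. Tumours of an arm share its mean, so the distances are not fully independent, and the 2 p-values were not adjusted for each other.

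**Figure D5:**
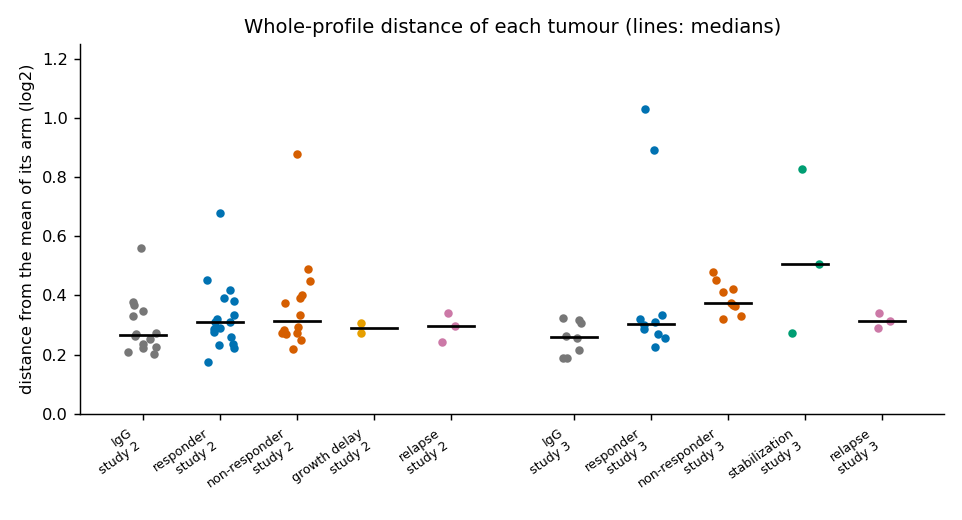
Distance of each tumour from the mean of its arm over all genes (y axis, root mean square, log2) by outcome label in study 2 and study 3; a point is 1 tumour and the bar the median of the label. In study 3 the 9 non-responders lie between 0.322 and 0.480, against 0.189 to 0.325 for the 8 IgG tumours, and the farthest responder and stabilization tumours reach 1.03 and 0.827.

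The distances in study 3 were not those of responders alone. Their median was 0.304 in responders, 0.376 in non-responders, 0.507 in stabilizations and 0.312 in relapses, against 0.259 in IgG tumours. Each distance was taken from the mean of the mixed arm, responders and non-responders included, so it is not the spread among tumours of 1 label. In study 3 the SD of the interferon gamma list mean was 0.303 in non-responders and 0.667 in IgG tumours. For the neutrophil list the SDs were 0.484 and 0.223.

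The treated arm was also split by outcome label. limma's F test over labels within treated tumours called 4768 of 18194 genes (26.2%), and 11 of the 14 T cell receptor genes and 14 of the 17 interferon gamma genes. The median share of a gene's treated variance that lay between labels was 10.4% in study 2 and 25.7% in study 3, where 4 labels with no effect would give on average 8.6% and 12.5%. For T cell receptor genes it was 17.1% and 46.5%, for interferon gamma genes 27.1% and 54.3%, and for MHC class II genes 19.2% and 72.1%. Measured within labels, the spread test gave 695 genes larger and 87 smaller in the treated arm at unadjusted p, again with 0 called and a smallest adjusted p of 0.815.

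The mean of the T cell list ran from 5.68 to 9.35 in the 14 non-responders of study 2 and from 5.85 to 7.97 in its 17 responders, with 1 and 9 tumours above the highest IgG tumour of 6.90. In study 3 it ran from 5.83 to 6.66 in the 9 non-responders, none above the highest IgG tumour of 6.74, and from 6.61 to 9.44 in the 10 responders, 9 of them above. An average over the treated arm of study 3 therefore joined tumours within the IgG range of this list with tumours above it.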

How the data were processed

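RNA of 90 mouse tumours was hybridised to arrays of 45101 probe sets. The authors deposited log2 values from 2.19 to 14.84, with array medians of 5.71 to 5.90. RMA and limma are named in the submitters' processing notes, without versions. Whether the studies were normalized as one set is not stated. Precision is limited by the number of arrays, since there are no counts.

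Probe sets with 1 gene symbol (34958) were kept, those with several (932) or none (9211) left out. Each of 18194 genes was represented by its brightest probe set over the 90 arrays; 9012 genes had more than 1. limma 3.58.1 in R 4.3.3 was fitted to all 90 arrays with 1 mean per study and arm; the contrast was taken within each study and averaged, with Benjamini-Hochberg adjustment over all genes and a threshold of 0.05. Spread was tested with limma on absolute deviations from the study and arm median, scaled for arm size. Both tests were checked on simulated normal values with independent genes. Genes scored for the mean test had the same SD in all arms there, so the check does not cover that test under unequal spread. Nothing in the labels says that tumours share an animal or culture, and p-values rest on the variation from tumour to tumour. In the fit with outcome labels they rest only on the variation within a label.

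The members and the 28 gene lists (337 of 379 entries measured) were chosen with earlier results of these data known. Genes were named by rule: the 3 smallest p of each list, a fixed set of 10 genes, and the 10 largest changes in each direction past the threshold. As no gene passed in the average of both studies, the 10 highest and 10 lowest at unadjusted p, the smallest p, the largest spread differences and the largest calls of study 2 were named instead, a rule chosen after the values were seen. Alternatives covered probe sets, scaling, filters, controls, array weights, outcome labels, RNA quality and each tumour left out. Promoters were taken from RefSeq, with Python 3.11.15.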

Additional observations from a re-analysis of the deposited data

Results flagged for a closer look

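Of 136 groups of 4 to 10 tumours examined for 30 genes and 4 list means, 5 held a tumour far from the rest of its group by Dixon's criterion; chance alone sets apart about 1 in 20 groups. Mlana, a melanosomal antigen, was 9.21 in IgG replicate 6 of study 3, where the next of 8 tumours had 10.27. It was 10.70 in PBS replicate 4 of study 3, where the next of 4 had 10.07. Mki67, a proliferation marker, was 11.65 in PBS replicate 2 of study 3, where the next of 4 had 10.49. Fabp3, a fatty acid binding protein, was 5.45 in responder 3 of study 3, where the next of 10 had 8.83. The interferon gamma list mean was 9.58 in the same responder 3, where the next of 10 had 10.42; its melanocyte mean was 6.84 and its B cell mean 10.42. No gene passed the test of a difference between the studies.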

How the results depend on the processing

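No paired analysis was possible because the labels give each tumour an animal number of its own and no replicate number shared between groups. Genes higher and lower in the average of both studies, 0 and 0 as reported, came to 1956 and 2648 with PBS tumours pooled with IgG, 2006 and 2057 with array weights (a fit that warned of poor convergence), 1011 and 856 with array weights and 1 variance per arm, 500 and 239 with 1 mean per outcome label weighted by tumours, 795 and 691 with labels weighted equally, 0 and 2 with the mean of all probe sets (Slc13a1 and U2surp), and 0 and 1 with the study ignored (Cux2). Chosen after seeing the data, pooling only the PBS tumours of study 2 gave 3 and 10, and only those of study 3, which stood apart on Xist and Eif2s3y, 1471 and 1820; the cause was not tested. The other alternatives gave 0 and 0. Each tumour left out in turn gave 0 to 65 higher and 0 to 31 lower. In study 2 the calls, 64 and 300, came to 313 and 644 with only the 2 groups compared in the fit and 10 and 75 with only responders and non-responders, and to 3 to 355 and 32 to 872 with each tumour left out. In study 3 every refit gave 0. The difference between the studies gave 0 to 43 higher and 0 to 33 lower, and IgG against PBS gave 0 to 22 higher and 1 to 25 lower. The spread test gave 2 larger with deviations from the arm mean, 1 with the log2 of the squared deviation, and 0 in its refits. Of 122 named genes only Foxp3 changed sign, to -0.029 with each array centred on its median. Of 20 genes named for study 2, 15 lost the call with only responders and non-responders, 5 without the tumours low in melanocyte transcripts, and 1 with only the 2 groups fitted.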
